A study of Mus musculus with 8 samples.

Results

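The genes described here encode the proteins of the cytosolic ribosome, measured by RNA sequencing in the medial prefrontal cortex of mice. Members were taken from the deposited gene table by symbol. These were symbols starting with Rpl or Rps followed by a digit, Rplp0, Rplp1, Rplp2 and Rpsa, without the S6 kinases (Rps6k) and without symbols marked as pseudogenes. The rule found 86 genes among 22609. They comprise 43 proteins of the large subunit, 31 of the small subunit, the 3 acidic stalk proteins, 8 paralog forms and 1 binding partner, Rps19bp1, which is not a ribosomal protein. The 77 proteins of the large subunit, small subunit and stalk are called core proteins below.

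In the study, 4 mice underwent contextual fear conditioning and 4 received context control exposure, which the series describes as biological replicates. Conditioned mice explored a chamber for 3 min, were given 2 foot shocks of 0.8 mA (2 s each, 30 s apart) and stayed for 15 s more. Control mice were in the chamber for 3 min without shock, so both groups share handling, novelty and exposure to the context. The added time around the shocks is recorded for conditioned mice only. All mice were of strain B6.SJL and 3 months old, the tissue (anterior cingulate cortex of both hemispheres) was taken 1 h after training, and total RNA was extracted. This design asks how the cortex differs early after an aversive memory is formed, against exposure to the place alone.

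A ribosome joins a small subunit, which reads the mRNA, to a large subunit, which forms the peptide bond. Each is built from ribosomal RNA and a single copy of most ribosomal proteins, so cells make these proteins in matched amounts. Their mRNAs are among the best known targets of the mTOR pathway, which controls their translation through a run of pyrimidines (C or T in the DNA) at the very start of the transcript, the terminal oligopyrimidine or TOP motif. In neurons, protein synthesis is required for lasting memory, and ribosomal protein mRNAs are also found in dendrites and axons. Ribosomal protein genes are further known for a large number of processed pseudogenes, near-copies of the spliced mRNA that lie elsewhere in the genome.

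The sequences at the start sites of 6 members show how variable the pyrimidine run is in the annotation. Each window holds 15 bases before and 15 bases from the annotated start of the gene, read 5′ to 3′ on the gene's own strand, and comes from the RefSeq promoter table of build GRCm38.p6. Capitals mark the longest unbroken run of C and T that touches the 5 bases on either side of the start. They are shown because Rpl15, Rpl27a and Rps15a correlated negatively with the mean of the other members across libraries, Rps3 followed it closely, Rps6 is the S6 kinase substrate and Rpl28 had no reads.
Rpl15, chr14:18270972-18271001, minus strand: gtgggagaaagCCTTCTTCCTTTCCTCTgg
Rpl27a, chr7:109519180-109519209, plus strand: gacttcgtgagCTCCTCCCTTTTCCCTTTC
Rps15a, chr7:118116133-118116162, minus strand: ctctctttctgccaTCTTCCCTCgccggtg
Rps3, chr7:99483695-99483724, minus strand: cttgcaagggTCgccgcgctgcgcggcgtc
Rps6, chr4:86857353-86857382, minus strand: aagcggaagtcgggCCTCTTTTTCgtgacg
Rpl28, chr7:4792950-4792979, plus strand: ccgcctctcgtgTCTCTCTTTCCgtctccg

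A run of at least 8 C or T letters at the start was present in 19 of the 56 core proteins with an entry in the table (33.9%), against 9.30% of all 27025 promoters. Among the other known TOP mRNAs, such as those of elongation factors, 5 of 14 had one (35.7%), and among mitochondrial ribosomal proteins, whose mRNAs are not of the TOP class, 7 of 67 did (10.4%). The run of the same length made of A and G, the complementary letters, was found in 2 of the 56 core proteins (3.57%) and in 10.2% of all promoters. The search used the gene's own strand only. The run measured 20 bases in Rpl27a, where it goes on past the end of the printed window, 17 in Rpl15, 10 in Rps6, 9 in Rps15a and 2 in Rps3. Long runs also occurred in members that followed the others closely, 14 bases in Rpl14 (r = 0.95) and 13 in Rps10 (r = 0.94). Whether run length goes with the pattern across libraries was not tested. A short run in this window describes the annotated start and says nothing about the starts used in the cortex.

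The coding starts show a second property of these genes, the near-copies. Each line gives the first 60 coding bases, from GENCODE vM21 transcripts (build GRCm38), and they are shown for the member with the highest level per length and for 2 with next to no reads. In the pseudogene copy of Rpl4, the capital marks the only base that differs from Rpl4.
Rpl4, chr9:64173375-64178666, plus strand: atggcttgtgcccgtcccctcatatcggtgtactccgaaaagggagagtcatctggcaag
Gm5835, processed pseudogene, chr1:143093347-143094616, minus strand: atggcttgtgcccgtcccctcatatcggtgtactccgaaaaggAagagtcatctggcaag
Rpl28, chr7:4792874-4795066, plus strand: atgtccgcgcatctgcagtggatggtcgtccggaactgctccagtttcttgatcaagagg
Rps28, chr17:33819027-33824562, minus strand: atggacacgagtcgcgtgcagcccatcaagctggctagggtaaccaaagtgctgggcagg

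The Rpl28 window occurred without a mismatch in 3 other annotated genes, among them the processed pseudogene Gm13226 (chr4:145576889-145577292). The Rps28 window occurred unchanged in 4 others, among them Gm10263 (chr13:73317844-73318143). Of the 83 members with such a window, 57 had an identical copy in at least 1 other annotated gene and 71 had one within 2 mismatches. No such copy was found for the abundant Rps3 and Rpl8. The same held for the scarce paralog forms Rpl10l, Rpl39l and Rpl3l, at 0.16, 0.68 and 0.23 scaled reads per kb. Other abundant members had identical copies, Rpl32 in 2 other genes and Rpl23 in 1. The scarce Rpl10a had 0 identical ones and 2 within 2 mismatches. The sources used here do not give how the authors counted reads that match several places equally well, and the values of members with near-copies are uncertain for that reason.

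The values behind all results are gene read counts that the authors divided by 1 factor per library, called scaled reads here. They are not corrected for gene length, although the deposited table is named for a length-corrected unit. Recovered reads numbered 1992452 to 3565356 per library, and the members took up between 6064 and 9359 of them. The limit that a count of 0 allows, 3 reads, corresponded to between 2.49 and 4.83 scaled reads by library, covering counting error only. Neuronal markers were abundant in all 8 libraries with a summed level of 19312 to 24497 scaled reads in fear conditioning libraries and 18760 to 23608 in context control libraries over 10 genes.

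The members' share of gene reads was low and similar in both groups. It was 0.283%, 0.308%, 0.251% and 0.206% in fear conditioning replicates 1 to 4, and 0.262%, 0.305%, 0.252% and 0.306% in context control replicates 1 to 4. Fear conditioning replicate 4 held the lowest share of the 8, and the other 3 fear conditioning libraries lay within or just beyond the range of the controls. The difference of the group means was -0.0193 percentage points, and without fear conditioning replicate 4 it was -0.00059. In a tissue sample, fewer cells of a type and less RNA per cell cannot be told apart.

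**Figure D1:**
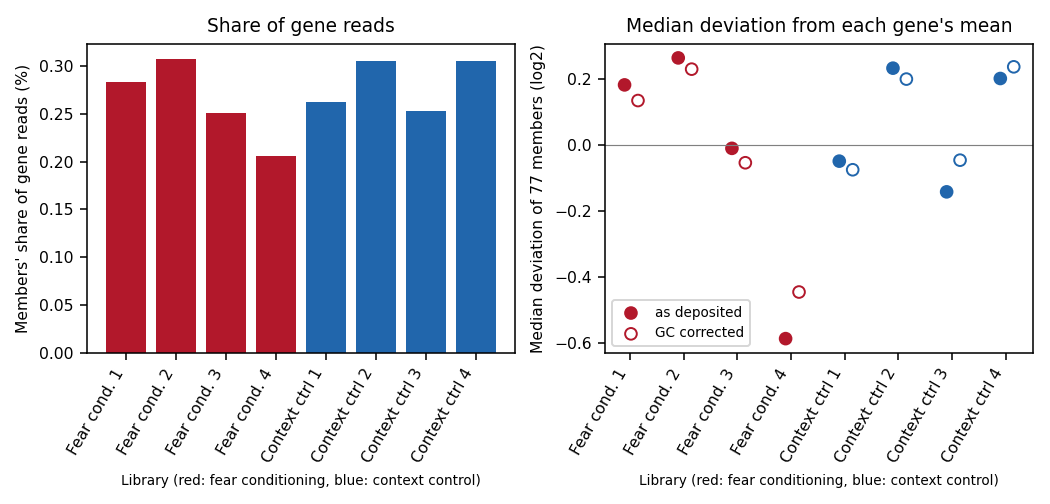
Left, bars give the percentage of each library's gene reads that fell in the 86 members. Right, points give the median over 77 tested members of log2(value + 1) minus the gene's mean over the 8 libraries, as deposited (filled) and after correction for GC content (open), with fear conditioning in red and context control in blue; fear conditioning replicate 4 is the lowest library in both panels, at 0.206% and -0.59.

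Levels differed widely within the family once divided by transcript length. The highest was Rpl4, a protein that lines the exit tunnel of the large subunit, at 848 scaled reads per kb. Also among the 5 highest were Rpl32 of the large subunit at 601, Rpl23 of the large subunit at 404 and Rps21 of the small subunit at 402. This order depends on the annotated transcript used for the length. Rpl32 averaged 310 scaled reads over 517 bases, whereas Rps15a averaged 379 over 5179 bases and so stood at 73.2 per kb. Whether the cortex uses transcripts of these lengths was not tested. Rpl4 alone contributed 15.2% of the members' scaled reads. At the other end, Rpl28 was listed at 0 in all 8 libraries, and Rps13 had reads in 1 library only, context control replicate 1.

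Of the 77 core proteins, 23 averaged at least 100 scaled reads, 22 averaged under 10 and 6 under 1. The 6 were Rpl9, Rpl28, Rpl36, Rps13, Rps23 and Rps28, each a core component of the cytosolic ribosome. The median level of the core proteins was 35.9 scaled reads per kb, beside 26.8 for the other genes tested, and 36 of the 77 lay below that value. Small subunit genes had a median of 58.6 per kb and large subunit genes 17.1. The mRNAs of proteins needed in equal amounts were listed at levels from 0 to 848 per kb, and protein levels were not measured. Fau, a ribosomal protein gene outside the rule whose product is fused to a ubiquitin-like protein, was also near the floor. Fau averaged 1.02 ± 1.32 in fear conditioning and 1.26 ± 1.91 in context control libraries (SD, n = 4 each).

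Shared sequence was measured as the percentage of a transcript's 50-base words that also occur, on either strand, in a transcript of another annotated gene. Its median was 50.1% over the 86 members and 0% over 14453 other genes tested, and 43 members exceeded 50%, as did 3.44% of the other genes. The 20 core proteins with the lowest level per kb had a median of 78.9%, and the 20 with the highest had 33.9%. Over the 86 members, Spearman's correlation between level per kb and shared percentage was -0.36, and -0.28 with 25-base words. With the longest coding transcript of each gene in place of the principal one, a choice that changes 20 members, it was -0.22 and -0.14, and the medians of the 20 lowest and the 20 highest were 52.3% and 30.9%. These are descriptions across genes that share families of pseudogenes and all 8 libraries, and the relation is weak under both choices.

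Single members went both ways. Rpl36a, a large subunit protein, had 85.5% shared words and still 268 scaled reads per kb, and Rps4x, an X-linked small subunit protein, had 72.2% and 249.7 per kb. Rps27 had the highest shared percentage, 98.6%, and 6.11 per kb. Rpl18, of the large subunit, combined 25.3% with 5.39 per kb. Its transcript used here has 2989 bases with the coding start at base 2376, and both values depend on that choice. Rps3, with 2.96% shared, stood at 359 per kb. The part of shared sequence in these levels was not tested.

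**Figure D2:**
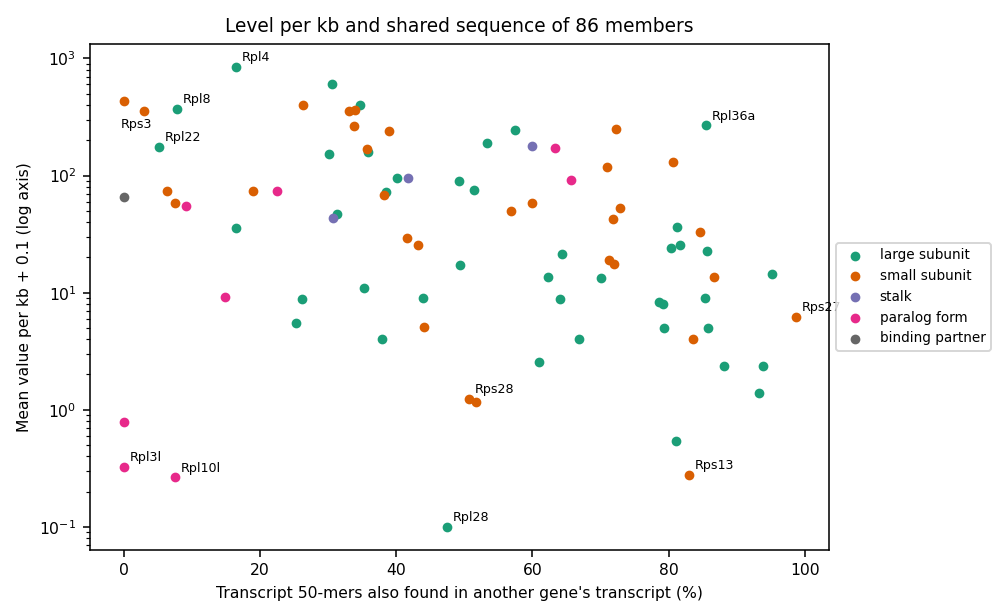
Each point is 1 of the 86 members, coloured by role. The horizontal axis gives the percentage of the transcript's 50-base words found in another gene's transcript, the vertical axis the mean level in scaled reads per kb plus 0.1 on a log scale; Rpl4 is highest at 848 per kb with 16.5% shared, and Rpl28, with 47.4% shared, is at 0.

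No tested member was called different between fear conditioning and context control. Of the 77 members that averaged at least 1 scaled read and were tested, 0 passed an adjusted p of 0.05 by limma (background 0% of 14704 genes in either direction), and edgeR and DESeq2 on recovered reads also called 0. At an unadjusted p under 0.05 there were 0 members by limma, edgeR and DESeq2, beside 2.7% of all genes tested by limma (397), with 385 genes by edgeR and 340 by DESeq2. In 0 members were all 4 libraries of one group above all 4 of the other, beside 1.92% of all genes. As a measure of precision, the 95% confidence interval on the log2 scale extended a median of 0.44 above and below the estimate for the 24 members with a mean of at least 100, and of 1.36 for the 17 tested members with a mean under 10. The 9 members that were not tested were Rpl28, Rpl36, Rpl9, Rps13, Rps23, Rps28, Rpl10l, Rpl39l and Rpl3l.

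The log2 change was below 0 in 57 of the 77 members, beside 48.2% of all genes tested, with a median of -0.09 and a median of 0.01 over all genes. Large subunit genes were below 0 in 28 of 40 (median -0.07), small subunit genes in 23 of 28 (median -0.09), stalk genes in 2 of 3 (median -0.13) and paralog forms in 3 of 5 (median -0.01). This leaning rested on 1 library. Without fear conditioning replicate 4 the median was 0.10 and 23 of 77 were below 0, and with limma's array weights, which give libraries that stand apart less weight, the median was 0.07 and 24 were below 0. No direction for the family follows from these 8 libraries.

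**Figure D3:**
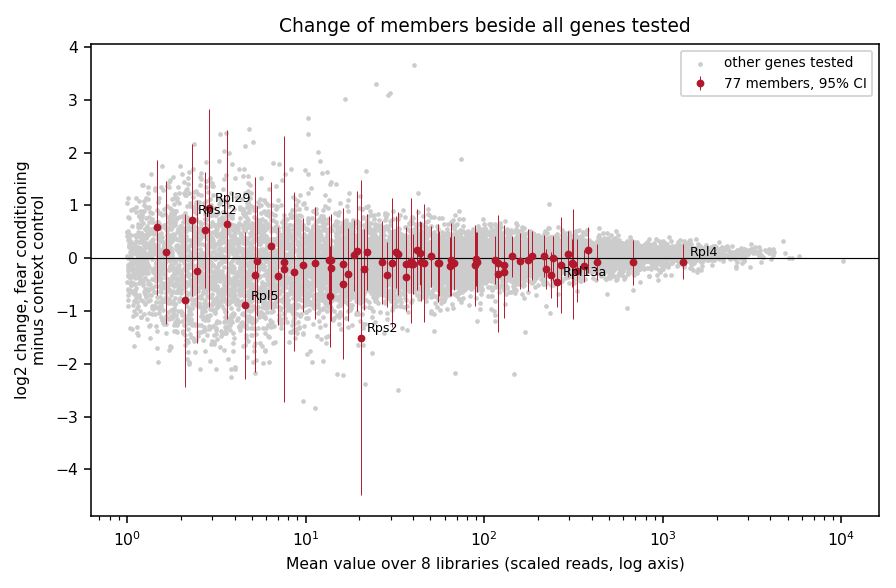
The vertical axis gives the log2 change, fear conditioning minus context control, and the horizontal axis the mean over 8 libraries in scaled reads on a log scale. Red points are the 77 tested members with 95% confidence intervals from limma and grey points the other genes tested; the members lie within the cloud, and each interval includes 0.

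Among large subunit genes the smallest p belonged to Rpl13a, which also takes part in translational silencing of inflammatory mRNAs. It had 229, 313, 169 and 166 scaled reads in fear conditioning libraries, against 267, 351, 242 and 309 in context control libraries. Replicates 1, 3 and 4 of fear conditioning were below every control, while replicate 2 was above 3 of the 4, so the groups overlapped. The log2 change was -0.45 ± 0.22 (SE; adjusted p = 0.9998 by limma), and it stayed between -0.63 and -0.33 under every alternative setting tried. Rpl4 had 1363, 1342, 1327 and 1057 scaled reads in fear conditioning and 1100.4, 1391, 1215 and 1640.0 in context control libraries. The fear conditioning libraries lay inside the control range except replicate 4, just below it, and the log2 change was -0.06 with a 95% interval from -0.40 to 0.27.

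Rpl5 and Rpl11, which carry the 5S ribosomal RNA and bind the p53 regulator Mdm2 when ribosome assembly fails, were both low. Rpl5 had 6.90, 3.98, 0 and 2.88 scaled reads in fear conditioning and 4.15, 6.72, 4.03 and 8.05 in context control libraries. Rpl11 had 9.67, 18.6, 10.9 and 4.80 in fear conditioning and 10.8, 20.1, 6.05 and 9.66 in context control libraries. The groups overlapped for both, with log2 changes of -0.89 ± 0.64 and -0.09 ± 0.49 (SE), and Rpl5 was near the limit of 3 reads. Rpl10, which joins the large subunit last, averaged 7.42 ± 2.50 in fear conditioning and 7.76 ± 2.66 in context control libraries (SD, n = 4 each).

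The members with the smallest p in the higher direction were all scarce. Rpl29, a basic large subunit protein, had 8.29, 7.96, 0 and 0.959 scaled reads in fear conditioning and 0, 0, 1.01 and 4.83 in context control libraries. Its log2 change of 0.95 carried a 95% interval from -0.92 to 2.82. Rps12, Rpl26, Rpl23a and Rpl19 averaged between 1.95 and 4.79 in fear conditioning and up to 2.50 in context control libraries, and their log2 changes lay between 0.53 and 0.72. These are means of a few reads per library, and a change was not detectable at this depth. Rpl10a, at 1.60 ± 0.794 in fear conditioning and 1.68 ± 1.45 in context control libraries, was as scarce.

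Among small subunit genes, Rps6, whose phosphorylation by S6 kinase is a common marker of neuronal activity, had 20.7, 25.2, 27.3 and 28.8 scaled reads in fear conditioning and 29.1, 26.9, 36.3 and 35.4 in context control libraries. The groups overlapped by a pair of fear conditioning libraries (replicates 3 and 4) and control replicate 2, and the log2 change was -0.31 with a 95% interval from -0.93 to 0.30. This is the level of the mRNA, and phosphorylation was not measured.

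Rps3, which holds the mRNA at its entry to the small subunit, had 746, 812, 683 and 444 scaled reads in fear conditioning and 609, 752, 596 and 832 in context control libraries. Replicate 4 of fear conditioning was the lowest of the 8 and the other 3 lay inside the control range. Its log2 change was -0.08 with a 95% interval from -0.50 to 0.35. Rps21 averaged 159 ± 54.3 in fear conditioning and 158 ± 22.6 in context control libraries, and Rps4x averaged 242 ± 41.3 in fear conditioning and 245 ± 57.1 in context control libraries. Rpsa, also known as the laminin receptor precursor, averaged 9.23 ± 2.56 in fear conditioning and 10.2 ± 2.88 in context control libraries. Rps27a, which is made as a fusion with ubiquitin, averaged 13.5 ± 7.83 in fear conditioning and 14.3 ± 4.74 in context control libraries (SD, n = 4 each).

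The stalk proteins Rplp0, Rplp1 and Rplp2 recruit elongation factors to the large subunit. Rplp0 had 152, 211, 105 and 40.3 scaled reads in fear conditioning and 138, 168, 92.8 and 129 in context control libraries. Rplp1 had 124, 137, 57.4 and 41.3 in fear conditioning and 89.7, 110.1, 75.6 and 78.9 in context control libraries. In both genes fear conditioning replicates 1 and 2 were high and replicate 4 was the lowest of the 8, so the conditioned group spread wider than the controls on either side. Their log2 changes were -0.25 ± 0.41 and -0.13 ± 0.35 (SE), and Rplp2 had 0.17 ± 0.36.

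Paralog forms can replace a core protein in some tissues, and they were compared per kb with the protein they resemble. Rpl22 stood at 167 scaled reads per kb in fear conditioning and 185 in context control libraries, and its paralog Rpl22l1 at 91.7 in fear conditioning and 89.7 in context control libraries. Rpl36a had 255 per kb in fear conditioning and 281 in context control libraries, and Rpl36al had 170.3 in fear conditioning and 171 in context control libraries. For Rps27 the order turned round. Rps27 itself had 3.96 per kb in fear conditioning and 8.26 in context control libraries, while Rps27l, a p53 target in human cells, had 63.4 in fear conditioning and 83.2 in context control libraries. As nearly all of Rps27 is shared with other genes, its level against that of Rps27l is uncertain.

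Rpl7 had 176 per kb in fear conditioning and 204 in context control libraries. Rpl7l1, whose yeast relative acts in assembly of the large subunit, had 55.6 in fear conditioning and 53.8 in context control libraries. Forms known from germ cells or striated muscle were at the floor. Rpl10l and Rpl39l, known from testis, had reads in 1 and 2 of the 8 libraries, and Rpl3l, known from striated muscle, in 1 (context control replicate 1). The gene listed as Rps4y2, whose current symbol is Rps4l, averaged 8.28 ± 6.92 scaled reads in fear conditioning and 8.91 ± 5.36 in context control libraries. Of the 5 paralog forms tested, 0 were called between the groups. The widest log2 change was that of Rps27l, -0.36 ± 0.29 (SE, adjusted p = 0.9998 by limma), with a 95% interval from -0.99 to 0.28.

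Rpl3, which forms part of the peptide bond centre, had 48.3, 5.31, 47.8 and 31.7 scaled reads in fear conditioning and 30.7, 24.2, 25.2 and 29.0 in context control libraries. Fear conditioning replicate 2 was far below every other library and replicates 1, 3 and 4 above all controls. The mean was 33.3 ± 20.2 in fear conditioning and 27.3 ± 3.09 in context control libraries (SD, n = 4 each), and the log2 change was -0.08 ± 0.56 (SE). Its sign rested on fear conditioning replicate 2, without which the change was 0.61, and it was 0.27 by edgeR and by DESeq2 on recovered reads. The binding partner Rps19bp1, a regulator of the deacetylase Sirt1, had 80.1, 62.3, 43.7 and 29.7 in fear conditioning and 62.3, 71.2, 34.3 and 54.7 in context control libraries, with overlap and a log2 change of -0.09 ± 0.34.

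Across the 8 libraries most members correlated with one another. Of the 77 tested, 62 (80.5%) correlated positively with the mean of all other members on the log2 scale and 48 (62.3%) had an r above 0.5 (n = 8 libraries, shared by all members). Of the 14627 other tested genes, 47.0% correlated positively with the members' mean and 26.3% had an r above 0.5. Among the 3 members most like the rest were Rps29 (r = 0.97) and Rps3 (0.97). Rps29, of the small subunit, had 76.0, 96.8, 58.8 and 34.5 scaled reads in fear conditioning and 60.6, 72.5, 46.4 and 78.9 in context control libraries. Fear conditioning replicate 2 was highest and replicate 4 lowest, so the extremes of the pattern lay within 1 group. Of the 77, 38 were lowest in fear conditioning replicate 4, 25 were highest in fear conditioning replicate 2 and 20 were highest in context control replicate 4.

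The least like the rest were Rpl27a (r = -0.88), Rpl15 (-0.87) and Rps15a (-0.64). Rpl15, a large subunit protein, had 253, 235, 327 and 401 scaled reads in fear conditioning and 255, 236, 349.9 and 298 in context control libraries. Rpl27a had 164, 145, 189 and 258 in fear conditioning and 159, 149, 229.9 and 185 in context control libraries. Rps15a had 363, 263, 482 and 511 in fear conditioning and 316, 368, 349.9 and 378 in context control libraries. All 3 were highest in fear conditioning replicate 4 and lowest in fear conditioning replicate 2 (the reverse of Rps29), and none separated the groups. Over the whole table, the genes most like Rpl15 were Mbtps2 (r = 0.99), Opa1 (0.99) and Dpp8 (0.99), none of them a ribosomal protein. They were picked as the highest r among 14704 genes over only 8 libraries.

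**Figure D4:**
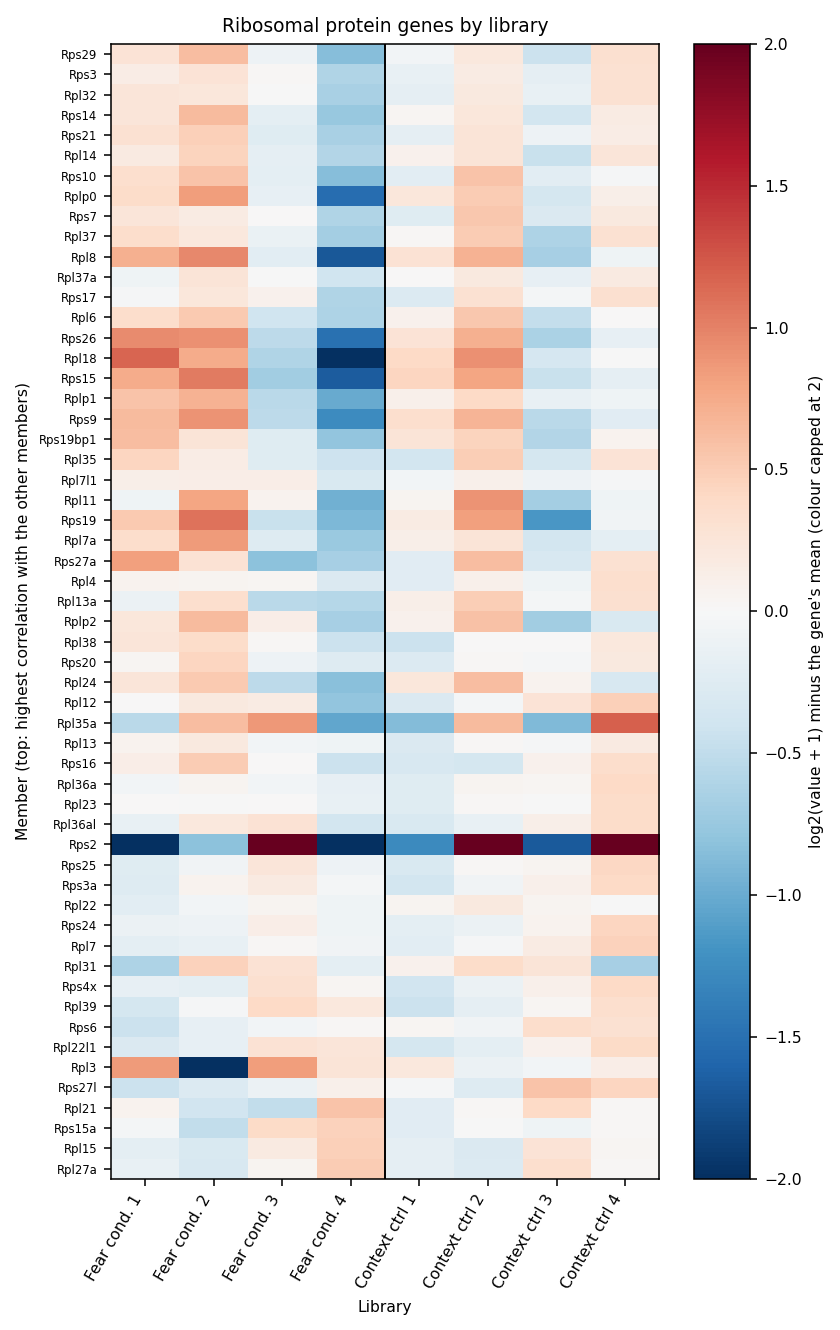
Each row is 1 of 56 members among the 60 with a mean of at least 10 scaled reads, each column a library, with fear conditioning left of the line and context control right. Colour gives log2(value + 1) minus the gene's mean, capped at 2 either way, and rows run from the members most like the others (top, r = 0.97) to the least like (bottom, r = -0.88). Fear conditioning replicate 4 is low in the upper part and high in the last 3 rows and in Rpl21 above them.

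In some libraries the members' deviations followed GC content. In fear conditioning replicate 4, the deviation of the 60 members with a mean of at least 10 correlated with transcript GC at r = -0.56, beside -0.77 over 9670 other genes. In fear conditioning replicates 1, 2 and 3 it was 0.25, 0.34 and -0.10 (other genes 0.63, 0.68 and -0.33). In context control replicates 1 to 4 it was 0.22, 0.48, -0.46 and -0.02 (other genes 0.41, 0.59, -0.55 and -0.25). The correlation was thus near 0 in fear conditioning replicate 3 and context control replicate 4. The 10 members richest in GC, at 55.9% to 60.3%, had a median deviation of -0.88 in fear conditioning replicate 4, and the 10 poorest, at 40.6% to 46.6%, had -0.07. Rpl8, a large subunit protein with 58.0% GC, had 452, 535, 238 and 84.4 scaled reads in fear conditioning and 335, 443, 173 and 259 in context control libraries. Rpl15 has 43.2% GC. Members of like GC also had opposite patterns, as Rpl27a (r = -0.88 with the other members) has 48.5% and Rps3 (r = 0.97) has 48.4%.

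Correction for GC, fitted on genes outside the family, left a median deviation of -0.45 in fear conditioning replicate 4, beside -0.59 as deposited. In context control replicate 4 the median was 0.24 after correction and 0.20 as deposited. Fear conditioning replicate 4 remained the lowest of the 8, and the SD over libraries was 0.23 after correction and 0.28 before. The median log2 change between the groups was -0.11 after correction. RNA quality scores are not given in the labels, and their part was not tested.

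**Figure D5:**
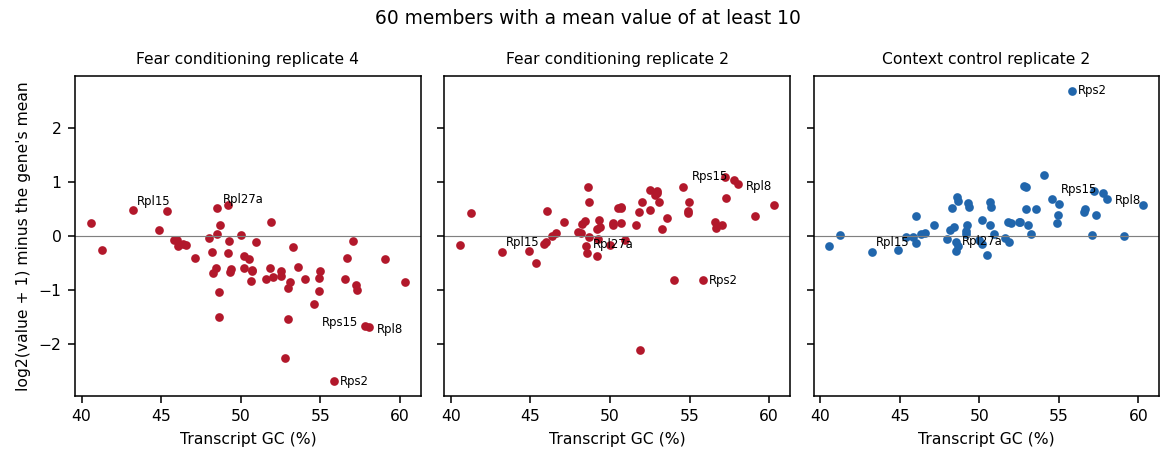
Each point is 1 of 60 members with a mean of at least 10 scaled reads; the horizontal axis gives transcript GC in percent, the vertical axis log2(value + 1) minus the gene's mean in the library named above each panel, fear conditioning in red and context control in blue. The slope is downward in fear conditioning replicate 4 (r = -0.56) and upward in fear conditioning replicate 2 (r = 0.34) and context control replicate 2 (r = 0.48).

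In a few members, singled out after their values were seen, the libraries split in a way that crossed both groups. Rps2, near the mRNA entry of the small subunit, had 0, 2.65, 57.4 and 0 scaled reads in fear conditioning and 1.66, 40.3, 1.01 and 61.2 in context control libraries. Rps18, at the head of the small subunit, had 0, 22.5, 9.56 and 0 in fear conditioning and 0, 14.8, 1.01 and 12.9 in context control libraries. Rpl35a, of the large subunit, had 22.1, 50.4, 60.1 and 15.4 in fear conditioning and 17.4, 51.0, 17.1 and 75.6 in context control libraries. In each gene, fear conditioning replicate 3 and context control replicates 2 and 4 were above fear conditioning replicates 1 and 4 and context control replicates 1 and 3. Fear conditioning replicate 2 was near the low libraries in Rps2, the highest of the 8 in Rps18 and among the high libraries in Rpl35a.

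The log2 changes of these genes were -1.50 ± 1.37 for Rps2, -0.21 ± 1.16 for Rps18 and -0.04 ± 0.55 for Rpl35a (SE), and each 95% interval included 0. Over the 8 libraries, the genes most like Rps18 were Ndufs3 of mitochondrial complex I (r = 0.99), AA388235 (0.95) and Fam86 (0.95). Those most like Rpl35a were the superoxide dismutase gene Sod1 (0.98), Uba7 (0.98) and Ubl5 (0.97), and those most like Rps2 were Mcfd2 (0.93), Scnm1 (0.92) and S100a10 (0.92). All were picked as the highest r among 14704 genes over only 8 libraries. What unrelated genes would reach in such a search was not tested, so no link between the genes follows. Shared words made up 71.3% of Rps2, 86.7% of Rps18 and 51.4% of Rpl35a.

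Other parts of the translation machinery gave no called gene by limma either (background 0% of 14704 genes). The count was 0 of 21 for the other TOP mRNAs and 0 of 34 for the initiation factors. It was 0 of 30 for ribosome biogenesis genes and 0 of 75 for mitochondrial ribosomal protein genes. At an unadjusted p under 0.05 by limma there was 1 gene in these lists, the intermediate filament gene Vim, beside 2.7% of all genes tested. Vim averaged 128 ± 56.1 scaled reads in fear conditioning and 207 ± 72.0 in context control libraries. The noncoding RNA Gas5, a snoRNA host, averaged 184 ± 14.4 in fear conditioning and 219 ± 26.9 in context control libraries. A log2 change below 0 was found in 16 of 21 other TOP mRNAs (median -0.09) and 20 of 34 initiation factors (median -0.02). It was found in 12 of 30 biogenesis genes (median 0.02) and 47 of 75 mitochondrial ribosomal proteins (median -0.10). Over all genes tested, 48.2% were below 0 (median 0.01).

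Among the initiation factors the smallest p belonged to Eif3j, a subunit of the complex that prepares the small subunit, and to Eif1, which guards start codon choice. Eif3j averaged 7.77 ± 6.09 scaled reads in fear conditioning and 14.3 ± 6.45 in context control libraries, and Eif1 averaged 399.8 ± 31.3 in fear conditioning and 459.95 ± 67.0 in context control libraries. Eif3j was at 0 in fear conditioning replicate 4, and its log2 change of -1.25 had a 95% interval from -2.87 to 0.37. In ribosome biogenesis, the nucleolar GTPase gene Gnl3 averaged 100.8 ± 18.3 in fear conditioning and 71.6 ± 15.1 in context control libraries. Fbl, the rRNA methyltransferase fibrillarin, averaged 7.13 ± 3.00 in fear conditioning and 2.80 ± 1.93 in context control libraries. Fbl was at 0 in context control replicate 4, and its log2 change of 1.24 had a 95% interval from -0.13 to 2.62. Gnl3 was the only gene of these 4 lists whose fear conditioning libraries all lay above the controls, and 1 mitochondrial gene, Mrpl34, named after its values were seen, had all of them below (background 0.979% higher and 0.939% lower).

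Among mitochondrial ribosomal proteins the smallest p belonged to Mrpl42, at 100.1 ± 16.2 in fear conditioning and 129.95 ± 15.0 in context control libraries, and to Mrpl18, at 112 ± 14.4 in fear conditioning and 134 ± 13.3 in context control libraries. Of 3 deposited ribosomal pseudogenes, 2 were at 0 in all libraries. The remaining one, Rps19-ps3, averaged 1.23 ± 1.88 in fear conditioning and 1.15 ± 0.781 in context control libraries.

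Log2 changes were below 0 for 10 of 10 astrocyte markers (median -0.32), 10 of 10 oligodendrocyte markers (-0.49), 8 of 8 oligodendrocyte precursor markers (-0.33), 9 of 10 microglia markers (-0.30), 10 of 10 endothelial and mural markers (-0.34), 8 of 8 meningeal markers (-0.66), 4 of 4 tested choroid plexus markers (-0.60) and 2 of 2 tested blood markers (-0.87). They were below 0 for 3 of 10 neuronal markers (0.05) and 4 of 7 striatal markers (-0.28), beside 48.2% of all genes tested (0.01). The adjusted threshold was passed by 0 of these genes (background 0%). By limma unadjusted p was under 0.05 in 2 astrocyte, 2 precursor, 2 endothelial and mural, 1 choroid plexus, 1 blood and 2 striatal markers. The other lists had 0, and the share of all genes tested was 2.7%. In 1 astrocyte and 1 precursor marker all fear conditioning libraries lay below the controls (background 0.939%).

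The summed level of the astrocyte list ranged over 16526 to 18578 scaled reads in fear conditioning and 16351 to 22899 in context control libraries. That of the oligodendrocyte list ranged over 2876 to 4800.3 in fear conditioning and 2657 to 10748 in context control libraries, with the highest in context control replicate 3. The endothelial and mural list summed to 984 to 1417 in fear conditioning and 1393 to 1735 in context control libraries, and the microglia list to 1816 to 2101 in fear conditioning and 2047 to 2655 in context control libraries. The precursor list summed to 787 to 1082 in fear conditioning and 935 to 1334 in context control libraries.

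The meningeal list summed to 247 to 791 in fear conditioning and 502 to 1078 in context control libraries. The choroid plexus list summed to 19.3 to 58.4 in fear conditioning and 23.3 to 71.6 in context control libraries, with Folr1 and Aqp1 at 0 in every fear conditioning library. The blood list summed to 36.5 to 99.5 in fear conditioning and 83.3 to 146 in context control libraries, with both alpha globin genes listed at 0 in all 8. The striatal list summed to 644 to 819.9 in fear conditioning and 637 to 1037 in context control libraries. The part of these cell types in the members' values was not tested.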

How the data were processed

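The deposited table holds a gene signal for 22609 symbols in 8 libraries, in which the authors divided read counts by 1 factor per library. It is named for FPKM, but 100% of the values above 0 in each column were whole multiples of 1 step (tolerance 0.01 read), the same for genes of any length. Per the submitters' processing notes, TopHat and HTSeq were used, and the build named is hg19, a human build for mouse samples. The sources used here give neither strandedness, so overlapping and antisense genes cannot be told apart, nor the treatment of reads matching several places, nor the origin of the factors.

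Reads were recovered by dividing each column by its step. In context control replicate 3 the step, 1.01, is so close to 1 that the column did not meet the criterion for recovered reads that the other 7 met. It was still converted, for the alternatives that need reads, and the results of edgeR and DESeq2 rest on that choice. The main test used log2(value + 1), genes with a mean of at least 1 over 8 libraries (14704), and limma 3.58.1 in R 4.3.3 (lmFit, eBayes with trend), two-sided, with Benjamini-Hochberg adjustment over all genes tested at 0.05. Fold changes on this scale understate the change of low genes. edgeR 4.0.16 (quasi-likelihood) and DESeq2 1.42.0 were run on recovered reads. The fit was tested on simulated data.

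Members and gene lists were chosen with earlier results of these data known. Named members are 11 genes and 6 pairs with their paralogs taken whatever their values, the 5 smallest p per direction, the 5 highest and 3 lowest tested levels per kb, and the 3 most and 3 least like the other members. Length, GC and shared words come from 1 GENCODE vM21 transcript per symbol (84 members by current, 2 by older symbol). The transcript was first the longest coding one. It was changed to the APPRIS principal transcript, then best support, then longest, after the levels and the correlation with shared words had been seen, and that change made the correlation stronger. Shared words, coding and start windows, GC by library and the genes singled out beyond the rule were also chosen after values were seen. GC correction subtracted a lowess curve (span 0.3) per library. Some genes that the rule takes are not reported here.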

Additional observations from a re-analysis of the deposited data

Results flagged for a closer look

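Among 82 groups of 4 libraries looked at, those of the tested named members and of the members' share of reads, 4 had a library far from the other 3, by the size of the gap to the nearest of them (Dixon's test at 95%). Chance alone gives about 1 in 20 groups.

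Fear conditioning replicate 4 was the low library in 3 of them. Rpl4 had 1057 scaled reads there and 1327 to 1363 in the other fear conditioning libraries. Rpl23, of the large subunit, had 385 there and 423 to 427 in the others. Rpl7l1 had 114 there and 155 to 156 in the others. In the remaining case, Rpl23a had 5.31 scaled reads in fear conditioning replicate 2, a value of a few reads, and 2.73 to 2.88 in the others.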

How the results depend on the processing

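Members called stayed at 0 of those tested in all 24 alternative settings. Members with a log2 change below 0 numbered 57 of 77, but 24 with array weights and 23 to 63 when each library was left out in turn, the lowest without fear conditioning replicate 4. The median log2 change was -0.09 and ran from -0.21 to 0.10 over those fits, above 0 only without fear conditioning replicate 4; with array weights it was 0.07. Over pseudocounts, filters, scalings, GC and length corrections, edgeR and DESeq2 it lay between -0.14 and -0.03. Genes called over the whole table were 0 to 1 with a library left out, the 1 being Uevld (limma adjusted p = 0.00646) without fear conditioning replicate 4. The difference in share of reads lay between -0.0346 and -0.00059 percentage points.

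Shared replicate numbers did not meet the bar for pairing (every correlation above 0.1): deviations of same-numbered libraries correlated at 0.23, 0.25, 0.07 and 0.11, and 1 of 4 fear conditioning libraries correlated best with its own number. With the replicate number as a replicate block, the median was -0.09, 57 members were below 0, 0 genes were called and 594 had an unadjusted p under 0.05, beside 397 without it, and with GC correction added the median was -0.11. For 40 tested named members, 950 comparisons with an alternative gave 90 changes of sign, 0 calls and 1 shift beyond the spread between libraries, and 16 kept their sign throughout. The correlation of level per kb with shared words was -0.36, and -0.22 with the longest transcripts, the choice first tried. Depth limits members with a mean under 10 scaled reads, whose 95% intervals extended a median of 1.36 to either side. Whether replicates come from separate litters or days is not given in the labels.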
